A study of Mus musculus with 9 samples.

Results

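The interaction between stimulation and Compound 10 was measured in CD4+ T cells of the spleen of C57BL/6 mice, a common inbred laboratory strain. For each gene it is the log2 change with stimulation under Compound 10 minus the log2 change with stimulation in vehicle, so a value below 0 means that the response to stimulation was lower under the compound than in vehicle. The comparison was defined by the groups in the sample titles and used all 9 of the 9 libraries of the series. Cells had been purified untouched, which leaves the CD4+ cells free of antibody, and were held for 1 h in DMSO, the vehicle, or in 12.5 µM Compound 10. They then stayed unstimulated or received 10 nM PMA, which activates protein kinase C, together with the calcium ionophore ionomycin at 1 µM, for 2 h. The groups were unstimulated vehicle (2 libraries), unstimulated Compound 10 (2), stimulated vehicle (2) and stimulated Compound 10 (3). The labels name no genotype beyond the strain and no age, and leave unsaid if replicates are different animals, cultures or only repeat preparations. The p-values therefore reflect spread among these libraries alone, which may be technical. Of 14040 genes tested, 144 (1.03%) had an interaction with an adjusted p under 0.05, of which 85 (0.605% of genes tested) were lower under Compound 10 and 59 (0.42%) were higher.

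Calcium entry activates the phosphatase calcineurin, which dephosphorylates NFAT and lets it enter the nucleus, while protein kinase C and Ras drive the MAP kinases that produce and activate AP-1, a dimer of Fos and Jun proteins. At composite DNA elements the NFAT and AP-1 proteins bind side by side and cooperate, and such elements are best known from the regulatory regions of T cell cytokine genes such as Il2 and Il4. The series describes Compound 10 as an inhibitor of the NFAT:AP-1 complex on DNA. NFAT without AP-1 is known to drive other genes, among them inhibitory receptors, and PMA also activates NF-kB through protein kinase C.

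Promoter windows are shown for 3 cytokine genes that the results below turn on, Il4 and Il17f, whose responses were lower under Compound 10, and Il2, the textbook gene with composite elements. Each window runs from 250 bases before to 50 bases after a transcription start (RefSeq, GRCm38.p6), and capitals mark GGAAA, the core letters of an NFAT site, on either strand (TTTCC on the other strand). The windows lie on the minus strand at chr11:53618616-53618915 for Il4, which has a second start with a window at chr11:53617289-53617588, chr1:20784221-20784520 for Il17f and chr3:37125905-37126204 for Il2.
Il4: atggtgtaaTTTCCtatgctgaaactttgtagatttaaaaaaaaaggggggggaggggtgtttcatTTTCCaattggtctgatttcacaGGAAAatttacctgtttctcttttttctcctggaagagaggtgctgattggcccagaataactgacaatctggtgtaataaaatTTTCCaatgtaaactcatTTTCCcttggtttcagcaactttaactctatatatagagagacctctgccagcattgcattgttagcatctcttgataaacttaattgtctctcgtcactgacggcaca
Il17f: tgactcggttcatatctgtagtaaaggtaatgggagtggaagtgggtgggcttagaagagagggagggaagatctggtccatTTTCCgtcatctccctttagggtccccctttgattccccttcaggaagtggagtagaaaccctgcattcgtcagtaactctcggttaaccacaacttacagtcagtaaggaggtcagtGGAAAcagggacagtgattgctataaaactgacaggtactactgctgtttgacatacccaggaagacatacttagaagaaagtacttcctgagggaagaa
Il2: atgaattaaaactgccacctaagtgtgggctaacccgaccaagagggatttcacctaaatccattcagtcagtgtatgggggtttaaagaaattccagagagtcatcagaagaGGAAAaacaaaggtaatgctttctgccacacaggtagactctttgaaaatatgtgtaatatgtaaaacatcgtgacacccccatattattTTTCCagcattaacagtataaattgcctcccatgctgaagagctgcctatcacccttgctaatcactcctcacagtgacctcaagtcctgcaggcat
The Il4 window shown held 5 matches, as many or more than which were found in 0.728% of 32851 windows of the same length. The window of the other Il4 start held 1 match, a number reached by 61.3% of windows, and the Il17f and Il2 windows held 2 each, a number reached by 26.7% of windows. GGAAA occurred in 61.3% of all windows and in 21 of 23 windows (91.3%) of the cytokine and composite-element genes, of whose 24 symbols 21 had a window. The AP-1 letters TGANTCA occurred in 7.81% of all windows and in 4 of those 23 (17.4%). A composite motif, the NFAT core followed after a gap of 3 bases by TGNNTCA, a looser form of the AP-1 letters, occurred in 0.122% of all windows and in 0 of the 23. A match describes the letters of the window and not binding. Sequence more than 250 bases before a start was not searched, so the 0 of 23 does not mean that these genes lack composite elements.

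Total estimated counts ran from 10669821 to 21852830 per library. The first principal component (57.2% of variance over the 4874 genes whose mean log2 CPM was 4 or more) separated stimulated from unstimulated libraries, and the second (25.2%) separated Compound 10 from vehicle. Nuclear ribosomal RNA took 1.78% to 26.31% of counts, with the highest shares in vehicle replicate 2 of the unstimulated (26.31%) and stimulated (13.84%) cells. The 5 CD4 T cell markers (Cd4, Cd3e, Cd3g, Trac, Lck) summed to between 539 and 1730 CPM, and 0 of the 5 had an interaction past the threshold by edgeR (1 lower by DESeq2), with a median of -0.13. By group the CD4 sum was 539 to 576 CPM in unstimulated and 1170 to 1590 in stimulated vehicle. Under Compound 10 it was 889 to 1020 unstimulated and 1660 to 1730 stimulated. The median Compound 10 difference of these markers was 0.76 in unstimulated and 0.77 in stimulated cells (log2). Of the CD8 markers, Cd8a held 7 counts over all libraries together, and Cd8b1 stood at 4.43 to 7.31 CPM with an interaction of -0.50. B cell markers summed to 199 to 849 CPM (0 of 6 past the threshold, median 0.73) and differed between replicates. Their sum was 199 and 469 CPM in unstimulated and 235 and 838 in stimulated vehicle. Under Compound 10 it was 293 and 313 CPM unstimulated and 456 to 849 stimulated. Monocyte, macrophage and dendritic cell markers summed to 3.32 to 7.99 CPM (0 of 2 tested of 6, median -0.20). Natural killer cell markers summed to 4.32 to 25.0 CPM (0 of 5 of 6, median 0.69), with the sum highest in stimulated Compound 10 at 18.3 to 25.0. Neutrophil markers (1 of 4 tested, S100a8 at 0 in both stimulated vehicle libraries and not past the threshold) reached at most 2.16 CPM, Ly6g held 3 counts in all libraries together, and erythroid and platelet markers spread from 1.17 to 21.3 CPM between libraries (0 of 5 of 6, median 2.32, or 0.77 over the 3 above 3 counts in every group). The part of these other cells in the results was not tested, and in bulk RNA fewer cells of a type and less RNA per cell cannot be told apart.

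**Figure D1:**
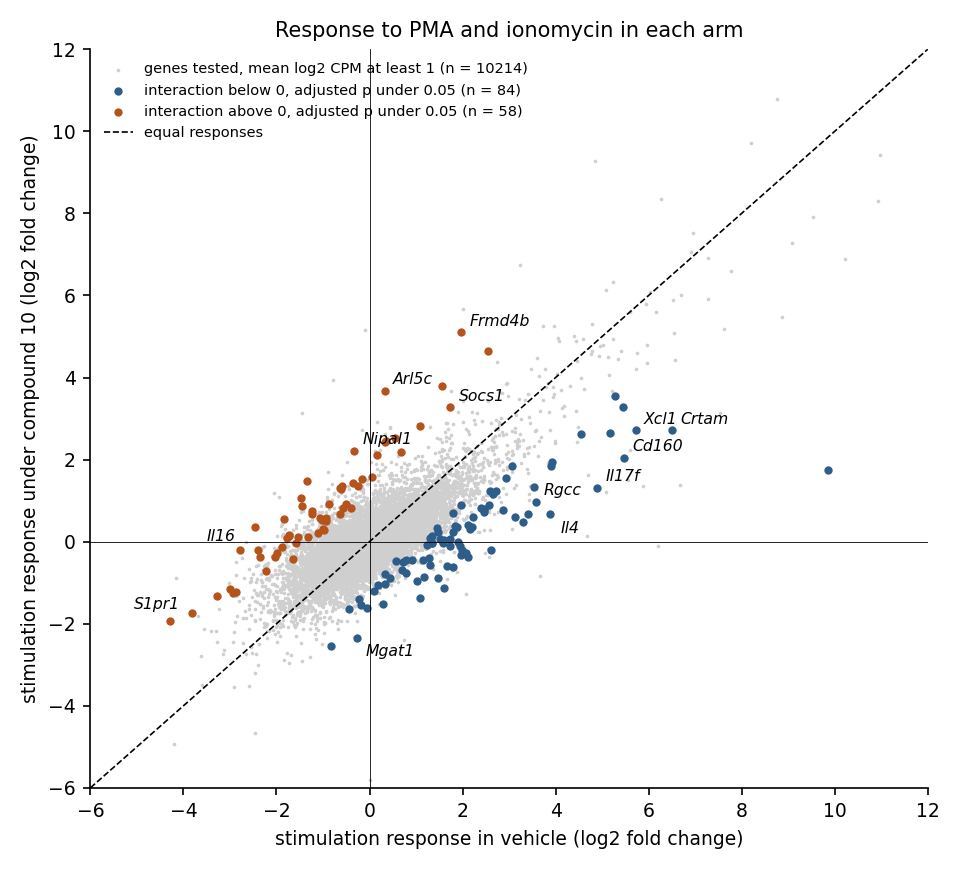
Response to PMA and ionomycin under Compound 10 (y axis, log2 fold change) against the response in vehicle (x axis, log2 fold change) for the 10214 genes whose mean log2 CPM was 1 or more. Blue points are the 84 drawn genes with an interaction below 0 and orange points the 58 above 0 at an adjusted p under 0.05, and the dashed line marks equal responses, below which Il4, Il17f and Xcl1 and above which Arl5c, Nipal1 and S1pr1 stand apart.

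Stimulation changed 3942 genes (28.1%) in vehicle and 3054 (21.8%) under Compound 10 in the same fit, and the 2 responses, which share no library, correlated across all genes tested with r = 0.65, a description over genes that are not independent replicates. The vehicle response is subtracted in the interaction, so the directions that follow describe the called genes and test nothing. Of the 85 genes lower under Compound 10, 73 rose with stimulation in vehicle, as did 14.3% of all genes tested, and among those 73 there were 27 that also rose under Compound 10, 35 that passed in neither direction under it and 11 that fell under it. Of the 59 genes that were higher, 38 fell with stimulation in vehicle, as did 13.8% of all genes tested, and of these 7 also fell under Compound 10, 24 passed in neither direction and 7 rose. A further 15 of the 59 passed in vehicle in neither direction and rose under Compound 10, and 6 rose in both arms and rose further under Compound 10. The median size of the 144 interactions was 1.73 and the smallest 1.05, beside a median SE of 0.441 over all genes, and the adjusted p of the last gene called was 0.0499 against 0.0514 for the next.

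The number of calls depended on single libraries. All 144 kept their sign in each of the 9 fits that left out 1 library, but 23 passed the threshold in all 9 and 2 in none. The count fell to 29 and 42 without unstimulated Compound 10 replicate 1 and 2, to 43 and 52 without unstimulated vehicle replicate 1 and 2, to 42 and 45 without stimulated vehicle replicate 1 and 2 and to 48 without stimulated Compound 10 replicate 3, and rose to 264 without stimulated Compound 10 replicate 2. Upper-quartile scaling, which moved the median of all genes to 0.112 from 0.01, turned the split of 85 lower and 59 higher (41.0% higher) into 66 lower and 81 higher (55.1%), and limma on log2(TPM + 1) called 19 lower and 3 higher (13.6%). Summing only transcripts whose identifier matched with its version left 9380 genes and 0 calls, with 839 at an unadjusted p under 0.05, so each call below was lost or untested there, and a value from this setting is given where it moved by over 1.5 times. For each gene called below, the number of the 9 fits in which it passed is given where it was not all 9.

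Among the inducible cytokines, the secreted signals of helper T cells, Il4 and Il17f responded less under Compound 10 and no member responded more. Il4, the cytokine of type 2 helper cells, stood at 8.36 and 14.5 CPM in unstimulated vehicle and at 158 and 178 in stimulated vehicle. Under Compound 10 it stood at 3.44 and 4.04 CPM without and at 7.21, 6.45 and 4.28 with stimulation. Stimulation thus raised Il4 14.7-fold in vehicle, while the 3 stimulated Compound 10 libraries stayed below both unstimulated vehicle libraries. The interaction of Il4 was -3.20 (SE 0.39, adjusted p = 0.00314 by edgeR's quasi-likelihood test with Benjamini-Hochberg adjustment), a response 9.17-fold smaller than in vehicle. Il17f, a cytokine of Th17 cells that acts on epithelium, stood at 1.23 and 1.10 CPM in unstimulated and 40.6 and 28.4 in stimulated vehicle. With the compound it stood at 1.36 and 1.77 CPM in unstimulated cells and at 3.68, 3.78 and 4.36 in stimulated cells. The stimulated groups of Il17f did not overlap, its unstimulated groups stood close together, and its interaction was -3.57 (SE 0.40, adjusted p = 0.00249). With version-matched transcripts alone the interaction of Il17f was -0.30, which did not pass.

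The other 18 cytokines did not pass. With no low-count filter, limma on log2(TPM + 1) or a replicate block within each treatment arm, 5 of the 20 were lower. Over all genes tested, these settings called 293 of 27206, 19 of 14040 and 632 of 14040 lower. Among version-matched transcripts 0 of 18 cytokines were lower. Il2, the growth factor of activated T cells, had 0.577 and 0.903 CPM in unstimulated vehicle and 0.520 and 0.443 in unstimulated Compound 10, which rest on 22 and 16 counts per group. After stimulation Il2 reached 1605 and 1420 CPM in vehicle, and 327, 240 and 429 under Compound 10. The stimulated groups of Il2 did not overlap, and the interaction of -1.56 (95% interval -2.80 to -0.31) had an adjusted p of 0.228. Il17a, the other Th17 cytokine and the neighbour of Il17f on chromosome 1, reached 151 and 146 CPM with stimulation in vehicle and 27.8, 33.1 and 31.8 with the compound, from 2 and 3 counts in the unstimulated groups. Il5, a growth factor of eosinophils, rose to 34.1 and 30.8 CPM in vehicle and stood at 1.52, 0.195 and 3.40 under Compound 10, with an interaction of -5.30 (SE 1.54, adjusted p = 0.176). Il13, which lies beside Il4 and Il5 on chromosome 11, stood at 66.8 and 30.1 against 5.04, 3.32 and 3.93 CPM after stimulation, from 9 and 2 counts in the unstimulated groups. For Il17a, Il5 and Il13 the stimulated groups did not overlap either. Such separation concerns the stimulated levels and not the interaction. The share of all genes that showed it was not counted, here or below, and Compound 10 changed 23.0% of genes tested in stimulated cells.

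Ifng, the type 1 cytokine, had an interaction of -1.18 (SE 0.63, adjusted p = 0.448), with stimulated levels of 1849 and 792 CPM in vehicle and 1239, 755 and 728 with the compound, which overlapped. Tnf rose to 678 and 1368 CPM in vehicle and to 2048, 1687 and 2530 with the compound, and its interaction was 0.57 (SE 0.62, adjusted p = 0.764). Its neighbours Lta (0.53, SE 0.32) and Ltb (-0.66, SE 0.47) did not pass. Among the growth factors of myeloid cells, Csf2 had an interaction of -1.17 (SE 1.42) and Il3 rose from 0 and 1 counts to 349 counts in vehicle and 175 under Compound 10. Lif (-2.45), Il21 (-1.46), Tgfb1 (-0.56), Osm (0.53) and Il10 (0.45) did not pass, nor did Il6, Il22 and Il9, each with at most 3 counts in an unstimulated group. In all, 2 of 20 cytokines were lower and 0 higher, 15 of 20 were below 0, and their median was -1.41 (-1.18 over the 14 with more than 3 counts in every group) beside 0.01 for all genes. Of all genes tested, 0.605% were lower, 0.42% were higher and 49.2% were below 0. An interaction with an unadjusted p under 0.05 in edgeR was found for 2054 of the 14040 genes. DESeq2 called 273 of the 14040 genes lower and 179 higher. The counts of each list below are to be read beside these shares.

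The list of genes known for NFAT:AP-1 composite elements overlaps with the cytokines, and 2 of its 12 members were lower and 0 higher, Il4 and Il2ra. Il2ra, the high-affinity chain of the IL-2 receptor, rose in vehicle from 6.63 and 9.48 to 192 and 185 CPM, and with the compound from 7.86 and 5.54 to 47.0, 33.0 and 44.6. Its unstimulated groups overlapped and its stimulated groups did not, with an interaction of -1.91 (SE 0.33, adjusted p = 0.0203, passed in 4 of 9 fits). Cd40lg, the ligand by which helper T cells activate B cells, rose in vehicle from 18.4 and 22.6 to 2482 and 2468 CPM. With the compound Cd40lg rose from 17.0 and 13.4 to 1751, 1936 and 2420 CPM, and its interaction was 0.15 (95% interval -0.56 to 0.86). Fasl, a death ligand, had -0.74 (SE 0.36), and Foxp3, the regulatory T cell factor, -0.57 (SE 0.48). The list's median was -1.27 (-1.18 over the 10 above 3 counts), with 10 of 12 below 0. No low-count filter gave 4 of the 12 lower, limma on log2(TPM + 1) 3 and a replicate block within each treatment arm 5. Version-matched transcripts gave 0 of 11.

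Of 10 chemokines, 1 was lower and 1 higher by edgeR, and 4 were lower and 1 higher by DESeq2. Xcl1, which attracts cross-presenting dendritic cells, rose in vehicle from 4.47 and 6.52 to 346 and 237 CPM. Under Compound 10 Xcl1 rose from 11.2 and 11.8 to 102, 55.4 and 69.6 CPM. Its interaction was -3.0 (SE 0.41, adjusted p = 0.00638). Cxcl10, an interferon-induced chemokine for CXCR3-bearing T cells, was higher, and here the difference lay in the unstimulated cells: 88.9 and 56.3 CPM in vehicle against 5.71 and 3.88 under Compound 10. After stimulation Cxcl10 stood at 173 and 257 CPM in vehicle and at 84.2, 48.4 and 67.0 under Compound 10, so the interaction of 2.23 (SE 0.45, adjusted p = 0.0429, passed in 2 of 9 fits, and 3.45 with version-matched transcripts) came with levels below vehicle in both states. Cxcl2 (-2.16, SE 0.55, adjusted p = 0.0908) and Ccl4 (-1.81, SE 0.52, adjusted p = 0.127) did not pass. The median of the 10 chemokines was -1.71 (-1.43 over 8), and -0.74 on the log2(TPM + 1) scale.

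**Figure D2:**
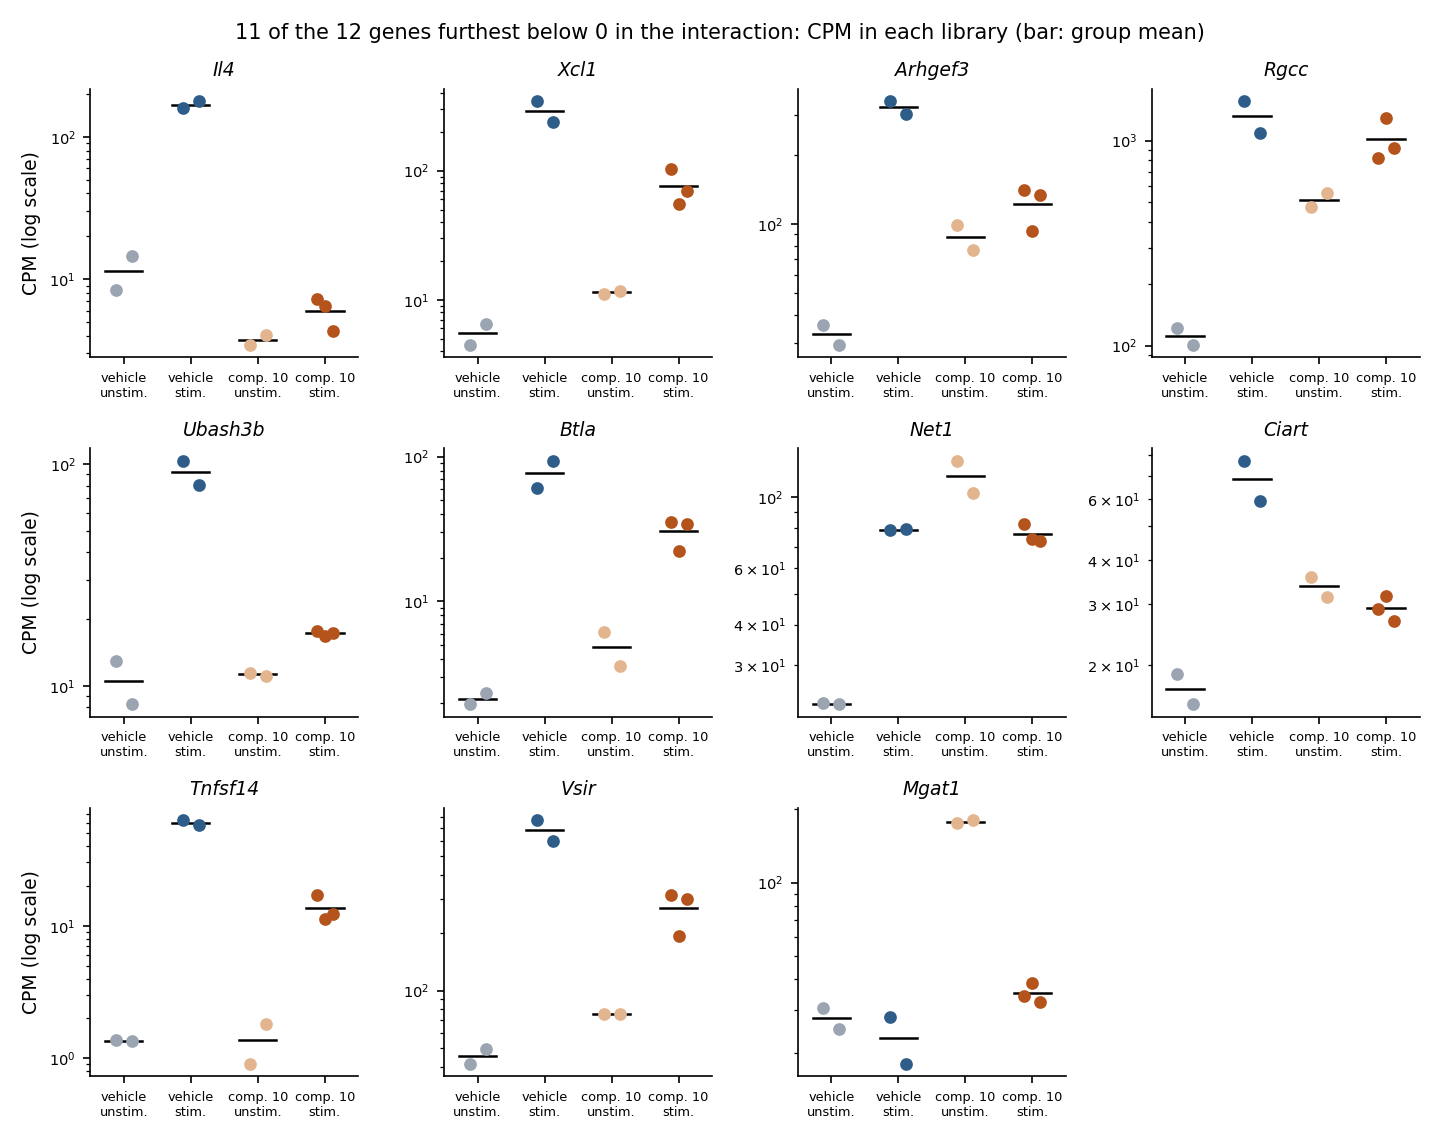
CPM (log axis) of 11 of the 12 genes furthest below 0 in the interaction, by library, with a bar at each group mean. In Il4 the 3 stimulated Compound 10 libraries (4.28 to 7.21 CPM) lie under both stimulated vehicle libraries (158 and 178), while in Net1 and Mgat1 the unstimulated Compound 10 libraries stand highest.

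Receptors and surface proteins gave several of the lower responses. Crtam, an adhesion receptor of activated T cells, rose from 0.504 and 0.452 to 55.8 and 31.6 CPM in vehicle, and from 1.23 and 1.05 to 11.1, 6.38 and 5.15 under Compound 10. Its interaction was -3.78 (SE 0.64, adjusted p = 0.0182, 4 of 9 fits). Crtam (9:40969691-41004628, GRCm38) lies next to Ubash3b (9:41011098-41161697), whose product is a phosphatase that restrains T cell receptor signalling. Ubash3b stood at 104 and 80.2 CPM in stimulated vehicle and at 17.6, 16.7 and 17.4 in stimulated Compound 10, with unstimulated groups that overlapped (12.9 and 8.26 against 11.4 and 11.1), and its interaction was -2.51 (SE 0.31, adjusted p = 0.00314). Tnfsf14, a costimulatory TNF family ligand known as LIGHT, rose to 62.5 and 57.4 CPM in vehicle and to 17.1, 11.3 and 12.3 under Compound 10. It had an interaction of -2.17 (SE 0.44, adjusted p = 0.0401, 3 of 9 fits). Crtam, Tnfsf14 and Il2ra were the 3 of 19 activation and costimulatory surface genes that were lower, with 0 higher and a median of -0.58, while Icos, a costimulatory receptor, had -1.03 (adjusted p = 0.0674).

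The inhibitory receptors, a group of which NFAT is a known regulator, also held 3 lower genes of 12 and 0 higher. Cd160, which binds HVEM, rose in vehicle from 1.15 and 0.903 to 55.5 and 35.3 CPM. Under Compound 10 Cd160 rose from 1.75 and 1.72 to 8.65, 6.38 and 6.55 CPM, and its interaction was -3.41 (SE 0.42, adjusted p = 0.00314). Btla, another receptor for HVEM, rose to 60.3 and 93.8 CPM in vehicle against 35.6, 22.3 and 34.4 under Compound 10 (interaction -2.51, SE 0.45, adjusted p = 0.0259, 4 of 9 fits). Vsir, which encodes the checkpoint protein VISTA, rose to 770 and 599 CPM in vehicle and to 315, 192 and 301 with the compound. Its unstimulated values were 41.6 and 49.5 in vehicle and 75.3 and 76.0 under the compound, and its interaction was -2.08 (SE 0.34, adjusted p = 0.0157, 5 of 9 fits). Other members went either way without passing, among them Cd5 (-1.11) and Cd274 (1.02), and the list's median was -0.32 (-0.27 over 11).

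Genes of T cell receptor signalling split, with 3 of 23 lower and 2 higher by edgeR (7 and 2 by DESeq2) and a median of -0.13. Cd2, an adhesion molecule that costimulates T cells, rose in vehicle from 48.6 and 41.8 to 201 and 203 CPM. With Compound 10 it was 86.6 and 94.3 in unstimulated and 103, 135 and 99.9 in stimulated cells, an interaction of -1.85 (SE 0.26, adjusted p = 0.00743). Cd6, a coreceptor with inhibitory and costimulatory roles, was 45.2 and 33.8 CPM in unstimulated vehicle and 155 and 164 in unstimulated Compound 10, and the stimulated groups overlapped (111 and 67.6 against 99.3, 85.1 and 76.8). Its interaction was -2.04 (SE 0.33, adjusted p = 0.0150, 4 of 9 fits), and Cd5, its neighbour on chromosome 19, had -1.11 (SE 0.32, adjusted p = 0.128). Plcg1, the phospholipase that makes inositol trisphosphate and diacylglycerol, fell in vehicle from 51.2 and 56.1 to 13.4 and 13.7 CPM. It stayed at 67.3, 39.1 and 54.0 CPM in stimulated Compound 10, beside 68.5 and 60.5 unstimulated, with an interaction of 1.71 (SE 0.32, adjusted p = 0.0267, 2 of 9 fits), or 0.94 with version-matched transcripts. Grap2, the adaptor known as Gads that links LAT to SLP-76, was likewise higher (1.64, SE 0.31, adjusted p = 0.0306, 2 of 9 fits).

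The NFAT proteins and calcineurin themselves mostly did not pass. Of 15 members tested, 1 was higher and 0 lower (2 and 0 by DESeq2): Rcan3, a member of the family of calcineurin regulators, fell in vehicle from 17.6 and 17.6 to 5.22 and 4.32 CPM. Under Compound 10 Rcan3 went from 17.1 and 17.6 to 17.9, 14.1 and 15.5 CPM, an interaction of 1.75 (SE 0.29, adjusted p = 0.0176, 3 of 9 fits), which was 0.47 with version-matched transcripts, 0.86 on the log2(TPM + 1) scale and 1.13 with length offsets. Nfatc1, which stimulation induces, went from 62.8 and 69.0 to 386 and 326 CPM in vehicle, and from 58.7 and 47.7 to 254, 131 and 224 under Compound 10 (interaction -0.50, SE 0.37, adjusted p = 0.605). Nfatc2 (0.49), Nfatc3 (0.84) and Nfat5 (-0.79) did not pass. Neither did the catalytic chains Ppp3ca (0.63), Ppp3cb (0.53) and Ppp3cc (1.40, adjusted p = 0.0670), the regulatory chain Ppp3r1 (-0.09), the inhibitor Rcan1 (0.93) or Dyrk1a (-0.89), a kinase of NFAT. The remaining members, Akap5 (0.62), Cabin1 (-0.21), Nfatc2ip (0.11) and Homer3 (0.13), did not pass either, and the list's median of 0.49 became -0.05 on the log2(TPM + 1) scale.

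Of 13 genes of the AP-1, ATF, BATF and MAF families, 9 rose with stimulation in both arms, and 0 had an interaction past the threshold by the edgeR test, with 3 at an unadjusted p under 0.05 and 0 called by DESeq2. Over all genes tested, 2054 of 14040 had an unadjusted p under 0.05. A replicate block within each treatment arm called 2 of the 13 lower, beside 632 of all 14040 genes tested. Fos went from 61.0 and 63.5 to 441 and 456 CPM in vehicle, and from 96.6 and 77.1 to 580, 528 and 543 under Compound 10, with an interaction of -0.19 (95% interval -0.75 to 0.37). Jun (-0.72, SE 0.25), Junb (0.02, SE 0.41), Jund (-0.29), Fosb (-0.43), Fosl1 (-0.23) and Fosl2 (0.41) did not pass. Atf3 (-0.17), Batf (0.09), Maf (-0.02), Maff (0.39), Mafg (-0.88) and Mafk (-0.81) did not pass either. The median was -0.19, and over the alternatives run it ranged from -0.31 to 0.02, the latter without stimulated vehicle replicate 1.

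Among 22 immediate-early genes, which are switched on without new protein synthesis, 1 was higher and 0 lower by edgeR (4 and 0 by DESeq2). Btg2, an antiproliferative gene that is also a p53 target, did not pass in vehicle, where it went from 242 and 237 to 370 and 334 CPM. With the compound Btg2 rose from 209 and 201 to 1152, 1318 and 1068 CPM, and its interaction was 1.97 (SE 0.27, adjusted p = 0.00617, 8 of 9 fits). Egr1, a zinc finger factor induced by ERK, reached 931 and 955 CPM with stimulation in vehicle and 4978, 3924 and 4259 with the compound, groups that did not overlap. The unstimulated values of Egr1 were 64.3 and 77.8 in vehicle and 143 and 86.9 under the compound, and its interaction of 1.53 (SE 0.36) had an adjusted p of 0.0698. Egr3 (2.08, adjusted p = 0.101) and Klf6 (1.59, adjusted p = 0.0707) did not pass, and the list's median was -0.16. The list of anergy genes and diacylglycerol brakes, to which Egr3 also belongs, had 0 of 13 past the threshold by edgeR, 3 at an unadjusted p under 0.05 and 2 higher by DESeq2, with a median of -0.03 (0.06 with upper-quartile scaling). Its Dgka, a kinase that removes diacylglycerol, had 1.46 (SE 0.32, adjusted p = 0.0569), with 49.2 and 43.6 CPM in stimulated vehicle against 250, 163 and 238 in stimulated Compound 10.

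Several NF-kB targets were higher. Of 20 members, 5 were higher and 0 lower (6 and 0 by DESeq2), 14 were above 0 and the median was 0.49, and this median stayed above 0 in each alternative run (0.13 to 0.70). Of all genes tested, 0.42% were higher by edgeR (179 of 14040 by DESeq2) and 50.8% were above 0. The members' median difference between Compound 10 and vehicle was -0.35 in unstimulated and 0.28 in stimulated cells. On the log2(TPM + 1) scale 0 of the 20 passed. The 5 calls fell to 0 and 2 without unstimulated Compound 10 replicate 2 and 1, to 1 and 2 without unstimulated vehicle replicate 1 or stimulated Compound 10 replicate 3, to 2 and 1 without stimulated vehicle replicate 1 and 2, and to 3 without stimulated Compound 10 replicate 1. Birc3, a ubiquitin ligase that inhibits apoptosis, stood at 66.7 and 53.5 CPM in unstimulated and 62.1 and 72.3 in stimulated vehicle. With the compound Birc3 rose from 49.4 and 36.2 to 175, 176 and 201 CPM, an interaction of 1.94 (SE 0.28, adjusted p = 0.00811, 8 of 9 fits). Icam1, the ligand of the integrin LFA-1, was 77.9 and 80.6 CPM after stimulation in vehicle and 250, 198 and 185 with the compound (interaction 1.78, SE 0.29, adjusted p = 0.0157, 5 of 9 fits). Traf1, an adaptor of TNF receptors, had 1.52 (SE 0.26, adjusted p = 0.0176, 4 of 9 fits). Tnip1, a partner of the NF-kB inhibitor A20, had 1.23 (SE 0.23, adjusted p = 0.0267, 1 of 9 fits), and Bcl3, an IkB family coactivator, 1.91 (SE 0.40, adjusted p = 0.0447, 2 of 9 fits). Bcl3 and Traf1 differed more in unstimulated cells, where they were 2.38-fold and 1.91-fold lower under Compound 10. In stimulated cells Bcl3 and Traf1 were 1.58-fold and 1.5-fold higher under it. Tnip1 differed from Birc3 and Icam1 in form: it fell in vehicle from 51.2 and 52.8 to 16.7 and 16.6 CPM, while under Compound 10 it was at 55.3 and 55.6 without and 44.6, 39.3 and 41.0 with stimulation, a change that did not pass.

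**Figure D3:**
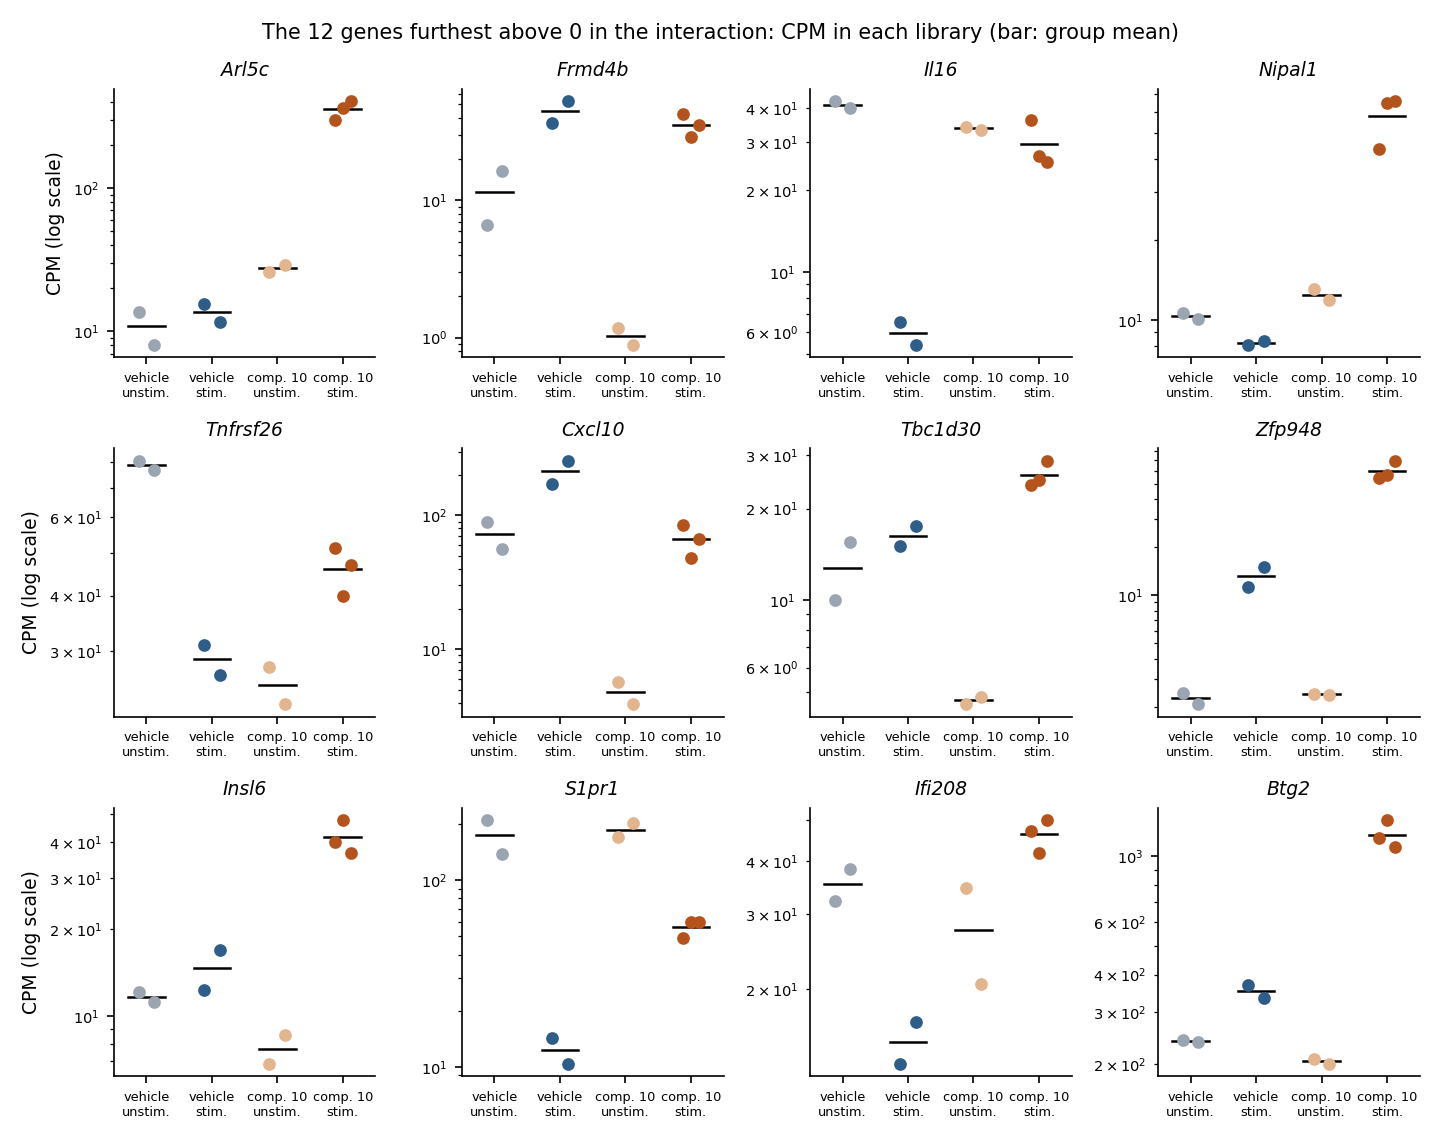
CPM (log axis) of the 12 genes furthest above 0 in the interaction, by library, with a bar at each group mean. Arl5c and Btg2 are highest in stimulated Compound 10 (297 to 403 and 1068 to 1318 CPM), Il16 and S1pr1 are lowest in stimulated vehicle, and Frmd4b and Cxcl10 are lowest in unstimulated Compound 10.

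Of the genes of resting and naive T cells, those that passed had fallen with stimulation in vehicle and stood higher in stimulated Compound 10. Il16, whose precursor is abundant in resting lymphocytes, fell in vehicle from 42.5 and 40.1 to 6.53 and 5.40 CPM. Under Compound 10 Il16 went from 34.2 and 33.4 to 36.4, 26.8 and 25.5 CPM, and its interaction was 2.60 (SE 0.30, adjusted p = 0.00249). S1pr1, the receptor that lets T cells leave lymphoid organs, fell from 210 and 139 to 14.3 and 10.4 CPM in vehicle and from 170 and 203 to 49.0, 59.7 and 59.6 under Compound 10. Its unstimulated groups overlapped, its stimulated groups did not, and its interaction was 2.09 (SE 0.33, adjusted p = 0.0139, 7 of 9 fits). Tsc22d3, which encodes the glucocorticoid-induced protein GILZ, fell to 21.1 and 20.1 CPM in vehicle and to 86.6, 94.4 and 69.0 under Compound 10, from 192 to 222 in the 4 unstimulated libraries (interaction 1.97, SE 0.27, adjusted p = 0.00567). These 3 of 22 members were higher and 0 lower by edgeR, with a median of 0.33, while DESeq2 called 7 higher and 2 lower. With version-matched transcripts the interaction was 1.45 for Il16 and 5.13 for Tsc22d3.

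T helper lineage factors held 2 lower genes of 19 and 0 higher, both of the Ikaros family. Ikzf2, or Helios, a factor of regulatory T cells, rose to 63.4 and 60.0 CPM in vehicle and stood at 14.9, 12.8 and 11.2 with the compound after stimulation, with 29.8 and 25.9 against 18.2 and 17.1 unstimulated. Its interaction was -1.59 (SE 0.26, adjusted p = 0.0157, 2 of 9 fits), and it was -0.97 with length offsets, -0.89 on the log2(TPM + 1) scale and 0.57, a reversed sign, with version-matched transcripts. Ikzf3, or Aiolos, rose from 8.86 and 10.8 to 45.5 and 58 CPM in vehicle and from 11.4 and 7.86 to 18.3, 16.5 and 16 under Compound 10 (interaction -1.58, SE 0.31, adjusted p = 0.0373, 2 of 9 fits). The list's median was -0.35, between -0.50 and 0.28 over the alternatives. Among 14 genes of STAT5 signalling and its feedback, Socs1, an inhibitor of JAK kinases, and the survival gene Bcl2 were higher (1.54, SE 0.32, adjusted p = 0.0430, 1 of 9 fits, and 1.67, SE 0.32, adjusted p = 0.0321, 3 of 9 fits). Socs3, another SOCS inhibitor, was lower (-1.37, SE 0.25, adjusted p = 0.0260, 2 of 9 fits), and the median was 0.33. Socs1 stood at 311 and 414 CPM in unstimulated vehicle and 117 and 104 in unstimulated Compound 10, while the stimulated groups overlapped (1349 and 1071 against 1034, 1247 and 952).

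The ribosome biogenesis list had every member on the same side of 0. All 22 members were below 0, beside 49.2% of all genes (20 to 22 of 22 over the alternatives that tested all of them, and 13 of 14 with version-matched transcripts), with a median of -0.83 that stayed between -0.95 and -0.72 over the alternatives run, and 3 of 22 were lower at the threshold. DESeq2 called 9 lower, a replicate block within each treatment arm 12 and the replicate block 0. Over all 14040 genes tested, these settings called 273, 632 and 23 lower. Leaving out 1 library gave 0 calls without unstimulated vehicle replicate 1, unstimulated Compound 10 replicate 1 or stimulated vehicle replicate 2. It gave 1 without the other library of each of these groups or stimulated Compound 10 replicate 3, 2 without stimulated Compound 10 replicate 1 and 6 without its replicate 2. The members' median response was 1.48 in vehicle and 0.43 under Compound 10, while the median difference between Compound 10 and vehicle in unstimulated cells was -0.03. Polr1b, the second subunit of RNA polymerase I, rose in vehicle from 6.2 and 7.94 to 24.5 and 30.8 CPM. Under Compound 10 it was 9.94 and 6.75 unstimulated and 5.53, 7.04 and 7.42 stimulated, an interaction of -2.29 (SE 0.36, adjusted p = 0.0139, 6 of 9 fits). Pes1, a factor of large-subunit assembly, rose to 73.1 and 73.1 CPM in vehicle and fell to 25.9, 28.6 and 26.4 with the compound, beside 35.9 to 38.6 in the 4 unstimulated libraries (interaction -1.37, SE 0.22, adjusted p = 0.0151, 2 of 9 fits). Fbl, the methyltransferase fibrillarin, rose from 66.7 and 68.0 to 205 and 166 CPM in vehicle and from 64.4 and 69.8 to 74.5, 78.8 and 84.1 under Compound 10 (interaction -1.22, SE 0.24, adjusted p = 0.0333, 1 of 9 fits). Nop2, a methyltransferase of ribosomal RNA, had -1.06 (SE 0.25, adjusted p = 0.0674).

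Other growth and metabolism lists held few calls. Myc, a factor that drives ribosome production, rose in vehicle from 11.2 and 14.7 to 1459 and 1232 CPM. With Compound 10 it rose from 16.8 and 13.1 to 780, 1132 and 949 CPM, and its interaction of -0.70 (SE 0.34) had an adjusted p of 0.371. The MYC network and polyamine list had 0 of 14 past the threshold by edgeR, 3 at an unadjusted p under 0.05 and 1 lower by DESeq2, and a median of -0.24, with Mnt, a MAX partner that opposes MYC, at -1.43 (adjusted p = 0.0527). Amino acid transporters had 0 of 8 by edgeR and by DESeq2, 2 at an unadjusted p under 0.05 and a median of -0.31. Of 20 glycolysis and hypoxia genes, 1 was lower and 0 higher (median -0.27): Hk1, a hexokinase, rose in vehicle from 52.4 and 41.5 to 191 and 119 CPM and stood between 69.6 and 79.4 in the 5 Compound 10 libraries (interaction -1.67, SE 0.30, adjusted p = 0.0248, 3 of 9 fits). Mitochondrially encoded genes had 0 of 13 by edgeR and by DESeq2, 0 at an unadjusted p under 0.05 and a median of 0.23.

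Of 25 SR and hnRNP splicing factors, 1 was lower and 0 higher (2 and 0 by DESeq2), with a median of -0.29. Hnrnpu, a nuclear matrix RNA-binding protein, rose in vehicle from 162 and 163 to 595 and 622 CPM, while the compound's libraries were at 220 and 230 before and 227, 225 and 220 after stimulation. The replicates of each group were close, the response passed in vehicle and not under Compound 10, and the interaction was -1.91 (SE 0.24, adjusted p = 0.00314). Among 16 heat shock chaperones, Hspa1a, an inducible HSP70, was lower (-2.04, SE 0.39, adjusted p = 0.0369, 2 of 9 fits), with 15 of 16 below 0, 3 lower by DESeq2 and a median of -0.36. Hspa1a was 16.3 and 15.6 CPM in unstimulated vehicle and 148 and 86.4 in unstimulated Compound 10, against 72.5 and 49.8 and 140, 101 and 88.6 after stimulation, and it shares most of its sequence with Hspa1b (-1.49, adjusted p = 0.105), so counts split between them are uncertain. The integrated stress response (0 of 14, median -0.23), NRF2 antioxidant genes (0 of 16, median -0.29) and p53 targets (1 of 18 higher, Btg2, median 0.10, and -0.08 to 0.52 over the alternatives) gave no further calls by edgeR. DESeq2 called 1 stress response gene lower and 0 NRF2 genes, and 4 and 1 of them had an unadjusted p under 0.05 in edgeR.

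Interferon-inducible GTPases had 0 of 16 past the threshold by edgeR, 5 at an unadjusted p under 0.05 and 2 higher by DESeq2, and a median interaction of 0.26, beside a median Compound 10 difference of -2.04 in unstimulated and -2.14 in stimulated cells. Their levels were thus lower under the compound in both states, and the interaction, in which a difference of equal size in both states cancels, had a median between -0.04 and 0.66 over the alternatives. Gbp7, a guanylate-binding protein with a larger Compound 10 difference in unstimulated than in stimulated cells, stood at 47.7 and 40.7 CPM in vehicle against 5.84 and 7.81 unstimulated, and at 36.2 and 44.4 against 17.1, 20.2 and 12.9 stimulated (interaction 1.43, SE 0.33, adjusted p = 0.0674). Of 21 other interferon-stimulated genes, Cxcl10 and Socs1, both described above, were higher and 0 were lower, 18 were above 0 (50.8% of all genes were), and the median was 0.64 (0.22 to 0.81 over the alternatives). The median Compound 10 difference of the 21 was -0.7 in unstimulated and -0.01 in stimulated cells. Stat2, a subunit of the interferon-activated factor ISGF3, fell in vehicle from 26.9 and 34.6 to 5.22 and 7.07 CPM and under Compound 10 from 45.5 and 33.3 to 29.8, 20.8 and 17.6, with an interaction of 1.53 (SE 0.38, adjusted p = 0.0869). Unlike the list's median, the Compound 10 difference of Stat2 was larger in stimulated (3.7-fold) than in unstimulated cells (1.28-fold).

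**Figure D4:**
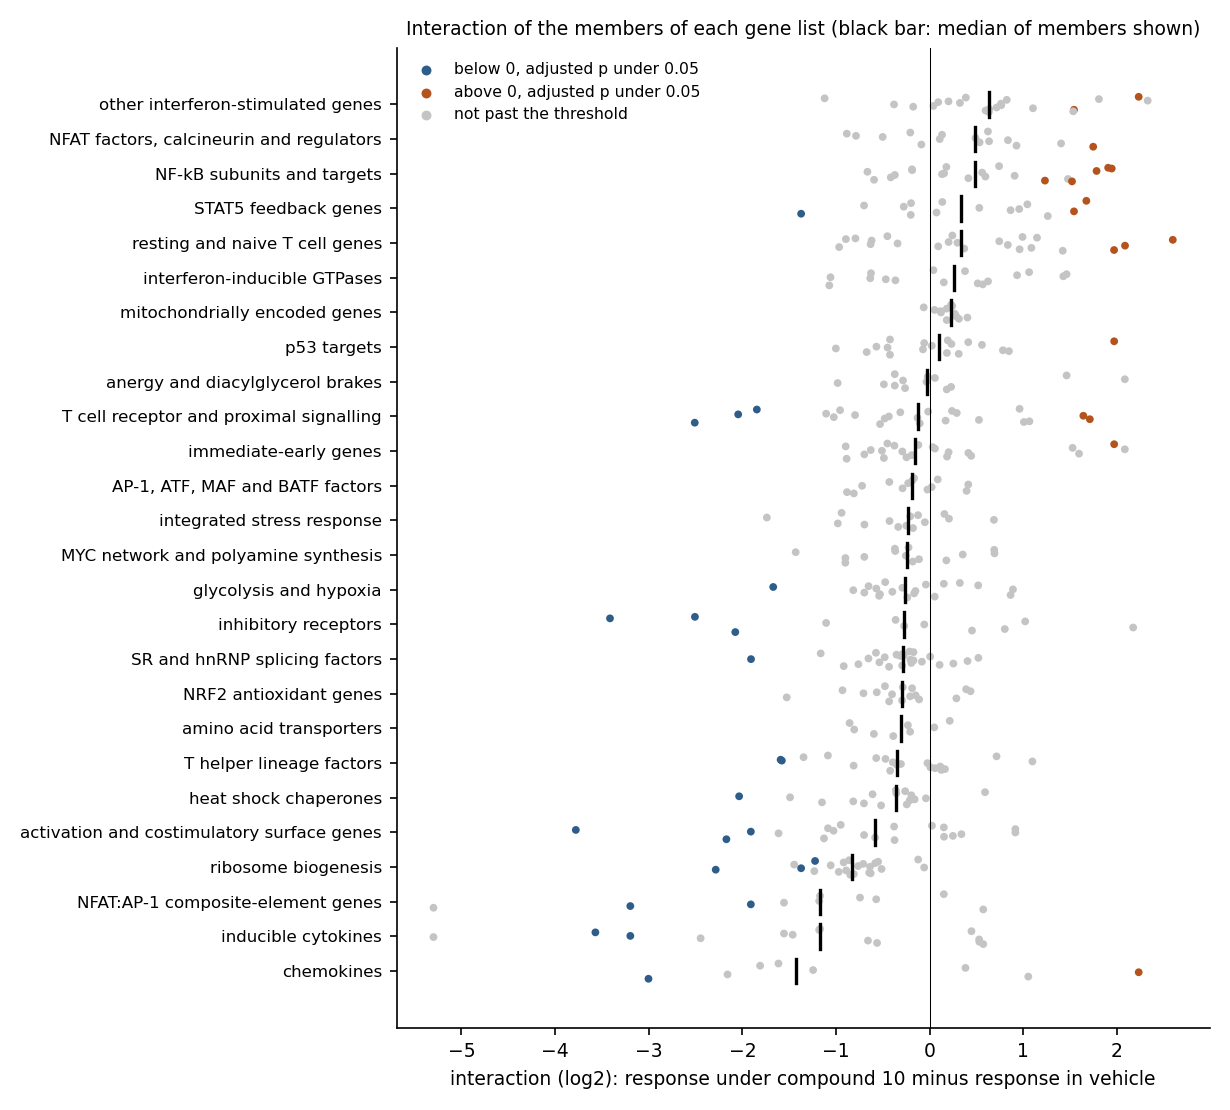
Interaction (x axis, log2) of the members of 26 gene lists (rows) that had more than 3 counts in every group, 426 entries in all, with a black bar at the median of the members shown. The 22 ribosome biogenesis genes all lie below 0, NF-kB targets hold 5 of the orange points above 0, and the cytokine and composite-element rows lie furthest left with the chemokines.

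Outside the lists, the genes with the smallest p and the largest changes took several forms. Arl5c, an ARF-like GTPase, was nearly flat in vehicle, at 13.7 and 8.06 CPM unstimulated and 15.6 and 11.6 stimulated. With Compound 10 it rose from 26.1 and 29.2 to 297, 361 and 403 CPM, 12.8-fold, and its interaction was 3.36 (SE 0.36, adjusted p = 0.00249), which was 0.45 with version-matched transcripts (adjusted p = 0.923). Nipal1, a magnesium transporter family member, rose from 13.1 and 11.8 to 43.6, 64.6 and 65.7 CPM under Compound 10, while the 4 vehicle libraries lay between 8.09 and 10.7 (interaction 2.55, SE 0.31, adjusted p = 0.00314, and 1.22 with version-matched transcripts). Arhgef3, an exchange factor for small GTPases, went the other way: it rose in vehicle from 36.1 and 29.6 to 344 and 303 CPM. Its Compound 10 libraries stood at 98.6 and 76.5 CPM unstimulated and 141, 93.0 and 134 stimulated, so the response was smaller from both ends (interaction -2.82, SE 0.32, adjusted p = 0.00249). Spata6, known from sperm, fell in vehicle from 12.6 and 14.6 to 1.93 and 3.00 CPM and stood at 15.2 to 21.8 in the 5 Compound 10 libraries (interaction 2.83, SE 0.33, adjusted p = 0.00296). Zfp948, a zinc finger gene, rose in both arms, to 11.2 and 15.1 CPM in vehicle and to 54.5, 56.3 and 69.7 under Compound 10, from 2.06 to 2.45 in all 4 unstimulated libraries (interaction 2.11, SE 0.34, adjusted p = 0.0144, 5 of 9 fits). The other genes furthest above 0 were Insl6 (2.10, a relaxin family peptide, 8 of 9 fits), Tbc1d30 (2.12, a Rab GTPase-activating protein, 5 of 9 fits, and 1.25 on the log2(TPM + 1) scale) and Ifi208 (1.98, 4 of 9 fits).

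In other genes the interaction came from the unstimulated cells. Rgcc, a regulator of cell cycle that responds to complement, stood at 122 and 101 CPM in unstimulated vehicle and 475 and 557 in unstimulated Compound 10. Its stimulated groups overlapped, at 1557 and 1091 in vehicle and 826, 1295 and 917 under Compound 10, and the interaction was -2.60 (SE 0.36, adjusted p = 0.00644). Mgat1, the enzyme that starts complex N-glycans, was 30.6 and 25.0 CPM in unstimulated and 28.0 and 18.0 in stimulated vehicle. Under Compound 10 it was 175 and 180 CPM unstimulated and 34.2, 38.7 and 32.4 stimulated, so it fell with stimulation in that arm and did not pass in vehicle (interaction -2.07, SE 0.30, adjusted p = 0.00764). Frmd4b, a scaffold protein, was 6.63 and 16.3 CPM in unstimulated vehicle against 1.17 and 0.886 in unstimulated Compound 10, with stimulated groups that overlapped (36.9 and 52.8 against 42.3, 28.9 and 35.3), and its interaction was 3.14 (SE 0.56, adjusted p = 0.0302, 3 of 9 fits), or 1.38 on the log2(TPM + 1) scale. Over the called genes, the difference between Compound 10 and vehicle was larger in stimulated than in unstimulated cells for 55 of the 85 lower and 47 of the 59 higher genes, and larger in unstimulated cells for the other 30 and 12. Compound 10 changed 1030 genes (7.34%) in unstimulated cells, 4.44% of genes upward and 2.9% downward, and 3234 (23.0%) in stimulated cells, 11.7% upward and 11.4% downward. Of the 85 lower genes, 54 were lower under Compound 10 in stimulated cells with no call in unstimulated cells, 17 were higher in unstimulated cells with no call in stimulated cells, and 11 were higher in unstimulated and lower in stimulated cells. Of the 59 higher genes, 43 were higher in stimulated cells only by call, 6 were lower in unstimulated cells only by call, and 5 were lower in unstimulated and higher in stimulated cells.

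**Figure D5:**
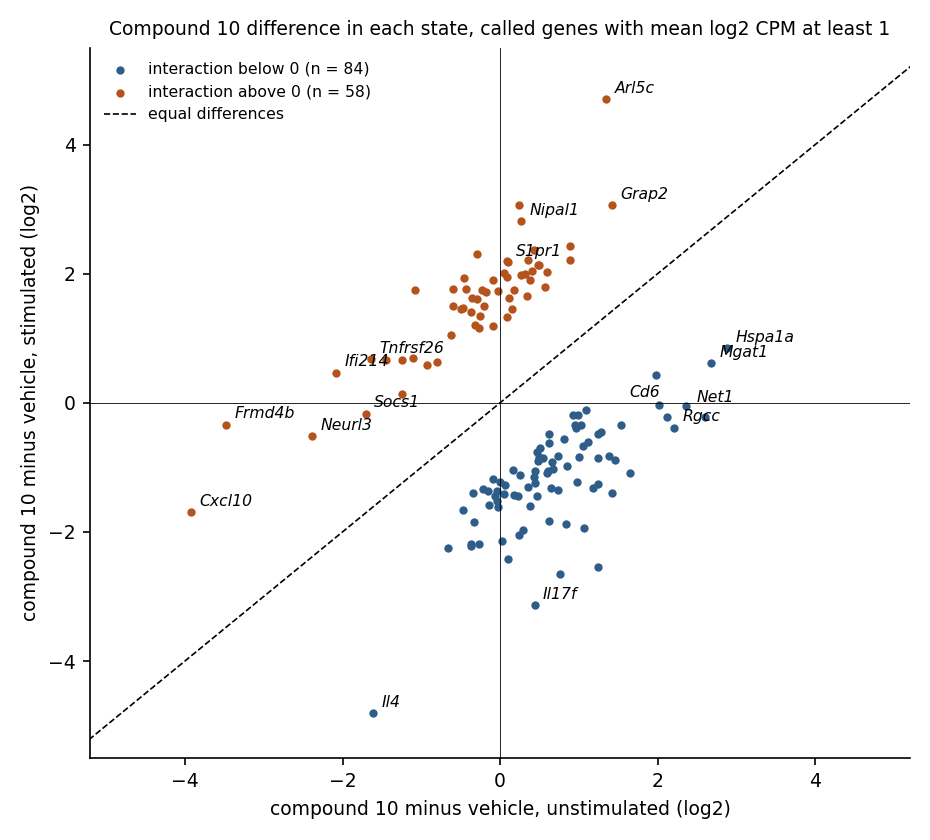
Difference between Compound 10 and vehicle in stimulated cells (y axis, log2) against the same difference in unstimulated cells (x axis, log2) for called genes whose mean log2 CPM was 1 or more. The 84 genes with an interaction below 0 (blue) and the 58 above 0 (orange) fall on either side of the line of equal differences by the way they were called, and Il4 and Arl5c differ mostly in stimulated cells while Mgat1, Net1, Frmd4b and Cxcl10 differ mostly in unstimulated cells.

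Some genes answered stimulation in opposite directions. Both responses passed in 2054 genes, 21 of them with opposite signs, and 18 of the 21 had an interaction past the threshold, beside 1.03% of all genes tested. Choosing responses of opposite sign favours a large difference between them, so the 18 describe the choice and test nothing further. Net1, another exchange factor for small GTPases, rose in vehicle from 22.8 and 22.6 to 78.6 and 79.2 CPM and fell under Compound 10 from 130 and 103 to 82.4, 73.9 and 72.8 (interaction -2.41, SE 0.24, adjusted p = 0.00201). Stim2, a sensor of calcium in the endoplasmic reticulum that opens store-operated channels, rose in vehicle from 29.5 and 31.6 to 67.1 and 84.2 CPM. It fell under Compound 10 from 84.2 and 92.9 to 62.2, 57.6 and 59.2 CPM (interaction -1.88, SE 0.24, adjusted p = 0.00342, and -1.22 with version-matched transcripts). Tnfrsf26, a TNF receptor family gene, fell in vehicle from 80.5 and 76.8 to 31.0 and 26.6 CPM and rose under Compound 10 from 27.6 and 22.8 to 51.2, 39.9 and 46.8 (interaction 2.32, SE 0.26, adjusted p = 0.00249). Faf1, a FAS-associated factor, fell in vehicle from 79.5 and 72.8 to 40.8 and 42.5 CPM and rose from 35.7 and 34.8 to 62.6, 69.5 and 69.1 under Compound 10 (interaction 1.80, SE 0.23, adjusted p = 0.00314). Arl4c, an ARF-like GTPase, fell to 48.1 and 46.0 CPM in vehicle and rose to 159, 146 and 161 under Compound 10, from unstimulated groups that overlapped between 61.6 and 81.3 (interaction 1.90, SE 0.25, adjusted p = 0.00405). Ifi214 and Cd6 also had responses of opposite sign.

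A set of genes was chosen by an interval that bounded the difference between the responses. In 42 genes that changed at least 4-fold in both arms, the 95% interval of the interaction lay within 1 log2 unit of 0. These intervals are not adjusted for the number of genes searched, and all genes changed 4-fold in both arms were not counted. The narrowest was that of S1pr4, a sphingosine phosphate receptor that fell in both arms, from 74.4 and 70.6 to 6.26 and 5.70 CPM in vehicle and from 137 and 138 to 12.6, 10.6 and 13.2 under Compound 10. Its interaction was 0.09 (95% interval -0.43 to 0.61) although Compound 10 raised its level in both states. Gimap5, a GTPase needed for lymphocyte survival, rose in vehicle from 13.1 and 15.3 to 128 and 137 CPM and under Compound 10 from 13.4 and 12.5 to 136, 136 and 160 (interaction 0.25, interval -0.28 to 0.78). Irf8, an interferon regulatory factor, rose from 95.3 and 80.0 to 508 and 580 CPM in vehicle and from 25.6 and 22.6 to 118, 110 and 114 under Compound 10, at lower levels (interaction -0.39, interval -0.93 to 0.15, and 0.58 with version-matched transcripts). Among the others were Cd84, a SLAM family receptor (0.28, interval -0.25 to 0.81, and 1.29 with version-matched transcripts), Arih2 (-0.18), a ubiquitin ligase, Yrdc (-0.28), a tRNA-modifying enzyme, Ccdc117 (0.19) and Grasp (0.29), a scaffold protein.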

How the data were processed

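Qiagen kits were used for total RNA and Clontech SMART-seq for the libraries, per the labels' protocols. The submitters' processing notes name cutadapt, kallisto and the build mm10. Their versions, the transcript annotation and any use of strand were not given in the sources used, so reads of overlapping antisense genes may not be told apart. The estimated counts were deposited per transcript and without scaling between libraries, per the file headers. The TPM values in the same deposited tables are scaled to effective length and library and served in 1 alternative, as did the deposited effective lengths.

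Each table held 109617 transcripts. Of these, 108214 matched GENCODE M21 (GRCm38) without the identifier's version and 63964 with it, and unmatched transcripts held 0.542% to 0.829% of counts. Estimated counts were summed for 45321 genes and rounded. Genes were filtered with filterByExpr (14040 left), scaled by TMM and fitted by quasi-likelihood (edgeR 4.0.16 under R 4.3.3, robust glmQLFit, then the 2-sided glmQLFTest) with 4 group coefficients over all 9 libraries. Adjusted p-values are Benjamini-Hochberg over the 14040 genes, called under 0.05. SE is the absolute log2 change over the square root of F, with 5 residual degrees of freedom and a biological coefficient of variation of 0.244. CPM are scaled by TMM. The test was also run on simulated counts drawn independently for each library, and the outcome is not given here. Those counts held none of the correlation between same-numbered libraries that is described below.

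Named genes were the 12 furthest below and above 0 whose mean log2 CPM was 4 or more, with 1 sign in all 9 leave-one-out fits, the 12 with the smallest p, the 8 with the smallest p among opposite responses, the 8 narrowest intervals among genes changed 4-fold in both arms, all tested members of the cytokine, composite-element, NFAT and AP-1 lists, and up to 4 of each other list. Some of these genes are not reported here. Predicted genes and receptor segments were skipped in the first 4 of these. Bcl3, Grap2, Nr1d1, the Ifi200 family as a set and the further ribosome genes were added after their values were seen. Ciart and Ifi208 were already among the genes furthest below and above 0. The 33 lists and the comparison were chosen with earlier results of these data known. Lists are described by counts and medians, and no test was run on them.

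Alternatives were upper-quartile and median-of-ratios scaling, DESeq2 1.42.0, no filter and a stricter filter, limma 3.58.1 on log2(TPM + 1), effective-length offsets, leaving out ribosomal RNA genes, matching with version, a replicate block, no robust shrinkage, leaving out each library, and leaving out the vehicle libraries richest in ribosomal RNA.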

Additional observations from a re-analysis of the deposited data

Results flagged for a closer look

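The following genes were singled out because the response to stimulation passed the threshold in vehicle and under Compound 10 with opposite signs, as did the interaction. Since the interaction was part of the choice, its values describe these genes and give no further test. The interaction was -2.41 for Net1, -1.88 for Stim2 and -2.04 for Cd6, which rose in vehicle and fell under Compound 10. It was 2.32 for Tnfrsf26, 1.80 for Faf1, 1.90 for Arl4c and 2.55 for Ifi214, which fell in vehicle and rose under Compound 10. Net1, Stim2, Tnfrsf26, Faf1 and Arl4c passed in each of the 9 fits that left out 1 library, and Cd6 and Ifi214 in 4 of the 9.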

How the results depend on the processing

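Beside 144 calls, median-of-ratios scaling gave 144, upper-quartile 147, a stricter filter 151, removal of ribosomal RNA genes 151 and no robust shrinkage 107. DESeq2 gave 452 (140 of the 144 among them), no filter 512, effective-length offsets 83 and limma on log2(TPM + 1) 22. Matching transcripts with their version left 9380 genes and 0 edgeR calls, with 839 at an unadjusted p under 0.05, and Ikzf2 reversed to 0.57. Leaving out 1 library gave 29 to 264 calls, and leaving out unstimulated and stimulated vehicle replicate 2, which held the most ribosomal RNA, 13. Of the 56 called genes chosen for naming, 55 or 56 kept their call under either scaling, DESeq2, no filter, the stricter filter and removal of ribosomal RNA genes, 50 without robust shrinkage, 43 with length offsets and 10 with TPM.

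A replicate block gave 43 calls, 42 of them shared, and kept 32 of the 56. The labels do not say that numbers pair samples. Deviations of same-numbered libraries correlated at 0.64 within vehicle and 0.555 within Compound 10, and at -0.239 to -0.042 between the arms. A replicate block within each treatment arm, added after the data were seen, gave 1162 calls, 143 of them shared. The cause of these shifts was not tested. Groups held 2 or 3 libraries, the median SE was 0.441, and the smallest called interaction was 1.05 in size.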

Other observations

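Genes of the Ifi200 family, interferon-inducible DNA sensors clustered on chromosome 1, were followed after 5 of them were seen among the called genes. Ifi208 (1.98), Ifi214 (2.55), Ifi206 (1.94), Ifi209 (1.39) and Ifi213 (1.43) had interactions above 0 with adjusted p-values of 0.0182, 0.0139, 0.0390, 0.0378 and 0.0498. They passed in 4, 4, 1, 2 and 0 of the 9 fits that left out 1 library, and Ifi214 was 1.53 on the log2(TPM + 1) scale. Ifi208 stood at 32.3 and 38.3 CPM in unstimulated and 13.3 and 16.7 in stimulated vehicle, and at 34.5 and 20.5 in unstimulated and 47.0, 41.8 and 49.9 in stimulated Compound 10. Ifi214 fell in vehicle from 24.4 and 29.1 to 8.93 and 10.3 CPM and rose under Compound 10 from 6.11 and 6.53 to 11.5, 9.71 and 18.8. The other 4 members tested, Ifi203 (-0.82), Mndal (-0.29), Ifi204 (1.19) and Ifi211 (-1.77), did not pass. These paralogs share sequence, so the split of counts between them is uncertain.

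Beyond the ribosome biogenesis list, 6 further called genes that were lower are known assembly factors of the ribosome, named after their values were seen. They were picked from the calls, which took in 0.605% of genes tested as lower. Assembly factors outside the list without a call were not counted, so the 6 add no weight to the list. These were Bysl (-1.52), Gnl2 (-1.45), Riok2 (-1.32), Ppan (-1.22), Noc4l (-1.20) and Mrto4 (-1.09), which passed in 3, 2, 1, 2, 2 and 1 of those 9 fits. Gnl2 rose in vehicle from 26.1 and 26 to 71.0 and 78.7 CPM and stood at 21 and 26.4 in unstimulated and 27.2, 27.0 and 20.4 in stimulated Compound 10. Ppan, by contrast, rose in both arms, to 136 and 130 CPM in vehicle and to 82.7, 79.3 and 83.5 under Compound 10. Clock genes were likewise picked from the calls, and those without a call were not counted. Of the clock genes, Ciart, a repressor of the circadian oscillator, rose in vehicle from 18.8 and 15.4 to 77.2 and 59.4 CPM and was 35.9 and 31.4 in unstimulated and 29.0, 31.7 and 26.8 in stimulated Compound 10 (interaction -2.20, SE 0.27, adjusted p = 0.00314, and -0.87 with version-matched transcripts, adjusted p = 0.877). Nr1d1, the clock repressor REV-ERB alpha, had an interaction of -2.74 (SE 0.56, adjusted p = 0.0401, passed in 2 of 9 fits) at 0.937 to 3.90 CPM.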
